A study of Mus musculus with 2 samples.

Results

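Somatostatin (Sst), cholecystokinin (Cck), the precursor of cocaine- and amphetamine-regulated transcript (Cartpt), PACAP (Adcyap1), neurotensin (Nts), neuropeptide Y (Npy), thyrotropin-releasing hormone (Trh) and calcitonin gene-related peptide (Calca) were examined in single cells of the mouse habenula. These 8 neuropeptide genes, of 28692 genes in each matrix, were chosen by name, and each was followed through neuron types defined by other genes. Tissue came from adult male C57BL/6 mice aged 50 to 55 days, all of them handled for 5 min per day on 7 days. The control library was a pool of 4 mice taken from the home cage. The foot shock library was a pool of 4 mice that were also put into the shock chamber daily (10 min, 7 days) and then received 30 shocks of 0.3 mA and 1 s during 60 min. The mice were perfused right after the session, and both groups were processed in solution that held tetrodotoxin, APV, DNQX, actinomycin and anisomycin, which block firing, glutamate receptors, transcription and translation. With 1 pooled library per group there is no replicate and no test between the groups. Every interval and limit below covers counting error only, and intervals are at 95%.

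Neuropeptides are cut from precursor proteins inside dense core granules, released apart from fast transmitters, and sensed by G protein-coupled receptors on nearby cells. The medial habenula (MHb) holds neurons that release acetylcholine or substance P together with glutamate, and the lateral habenula (LHb) holds mostly glutamatergic neurons that influence midbrain monoamine systems. A neuron can hold several peptides, so both the share of cells with a transcript and its presence beside another one in the same cell were measured.

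The libraries held 23095501 unique molecular identifier counts (UMIs) in control and 22189951 in foot shock. Kept cells numbered 4880 in control (median 2416.5 UMIs) and 4771 in foot shock (median 2698 UMIs), and 2594 and 2741 of them were neurons. MHb-like neurons numbered 1207 and 1616, LHb-like neurons 957 and 849, thalamic-like neurons 131 and 55, other neurons 278 and 193, and GABAergic-like neurons 21 and 28. Unlike the medians over all cells, the median depth of each neuron class was lower in foot shock. MHb-like neurons had 4221 UMIs in control and 3465.5 in foot shock, LHb-like 4346 and 3641, and thalamic-like 6748 and 3720. Other neurons had 4042 and 3541, and GABAergic-like neurons 3980 and 2370.5. Shares of positive cells that are not thinned carry this difference in depth. Foot shock also held 503 epithelial-like cells with keratin genes. Levels are in counts per 1000000 (CPM), taken over the summed UMIs of a group of cells in 1 library. Neurons with the markers that define the habenula were found in both libraries. The habenula transcription factor Pou4f1 lay between 110 and 964 CPM in the 18 MHb-like and LHb-like subclusters. These names required Pou4f1 at 1 per 10000 or more, so the range is no separate check of the tissue. The neuropeptide genes were kept out of clustering, and subclusters are called by their 2 leading genes. The Gabrg1 and Arpp21 subcluster stood nearest the Pou4f1 threshold of 1 per 10000. The MHb-like subclusters Pim1 and Fn3krp and Car2 and Ebf3 had Neurod2, a gene of the cortical list, and no MHb marker among their 10 leading genes. The 2 libraries shared 32 cell barcodes.

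Sst, Cck, Cartpt and Adcyap1 were found mostly in neurons, and 15 of 152 combinations of the 8 genes with subclusters stood above background in both libraries. Of cells with a UMI of Sst, 95.4% were neurons in control and 88.4% in foot shock, and for Cck, Cartpt and Adcyap1 the shares lay between 91.7% and 98.3%. RNA set free from broken cells reaches every droplet, so a level was counted as above background only under 2 conditions. The share of cells with a UMI, after thinning each cell to 1000 UMIs, had to lie above the interval in oligodendrocyte-like cells, and the CPM interval above the CPM in droplets of 10 to 100 UMIs, called free RNA here. In the 4 neuron classes that had 50 or more cells per library, 9 of 32 gene and class combinations passed in control, 8 in foot shock and 8 in both. Over 19 subclusters of that size, 15 of 152 combinations passed in both libraries. By gene these were 6 for Cartpt, 5 for Adcyap1, 2 for Cck, 1 for Sst, 1 for Trh and 0 for Nts, Npy and Calca.

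**Figure D1:**
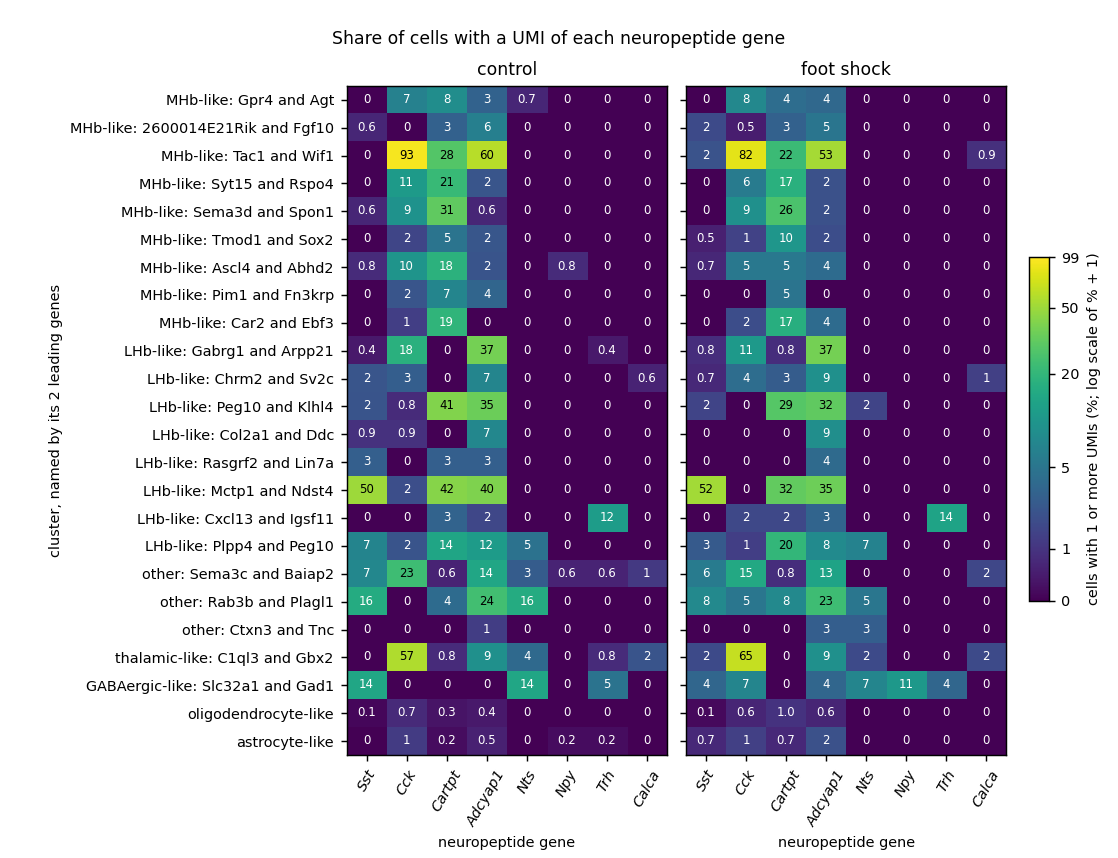
Share of cells with 1 or more UMIs of each neuropeptide gene (columns) in neuron subclusters and in 2 glial classes (rows), for the control library (left) and the foot shock library (right), with colour on a log scale. Cck reached 93% and 82% in the Tac1 and Wif1 subcluster, Sst 50% and 52% in the Mctp1 and Ndst4 subcluster, and oligodendrocyte-like cells stayed at or below 1.0% for every gene.

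Sst encodes an inhibitory peptide that acts through receptors coupled to Gi proteins. The gene (ENSMUSG00000004366) lies on chromosome 16 at 23889573 to 23890958, minus strand, in GENCODE vM21 (GRCm38, the assembly of mm10). In the LHb-like Mctp1 and Ndst4 subcluster, 25 of 50 control cells had an Sst UMI (50%, Clopper-Pearson 35.5 to 64.5%), as did 47 of 91 after foot shock (51.6%, 40.9 to 62.3%). The level there was 480 CPM in control (Poisson 392 to 581) against 465 CPM after foot shock (392 to 547), with 11.9 and 15.3 CPM in free RNA. This subcluster held 57.1% of all neuronal Sst UMIs in control and 81.1% in foot shock, while it made up 5.22% and 10.7% of LHb-like neurons. Positive cells were often well above 1 UMI, with 10 of 25 in control and 19 of 47 in foot shock at 4 or more, and the highest cells at 18 and 8.

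Elsewhere Sst was sparse, apart from small groups of cells. In the other neurons led by Sema3c and Baiap2 it reached 25.05 CPM in control (15.3 to 38.7) against 17.95 CPM after foot shock (7.75 to 35.4), so that only the control value stood above free RNA. The Rab3b and Plagl1 neurons had 4 positive of 25 control cells (141 CPM, 70.2 to 252) and 3 of 39 foot shock cells (35.9 CPM, 9.79 to 92.01). The 21 GABAergic-like cells of control held 19 Sst UMIs, 13 of them in 1 cell. MHb-like neurons had 5 Sst UMIs in 1207 control cells and 14 in 1616 foot shock cells, at 0.998 and 2.51 CPM. Those levels were below the free RNA of each library. In oligodendrocyte-like cells, 1 of 1078 control cells (0.0928%) and 1 of 828 foot shock cells (0.121%) had an Sst UMI, at median depths of 2066.5 and 1845.5 UMIs against 4595 and 3644 in the Mctp1 and Ndst4 subcluster.

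Cck encodes an excitatory peptide shared by brain and gut. The gene (ENSMUSG00000032532) lies on chromosome 9 at 121489824 to 121495694, minus strand. In the MHb-like Tac1 and Wif1 subcluster, whose leading gene Tac1 encodes substance P, 145 of 156 control cells had a Cck UMI (92.9%, 87.7 to 96.4%), as did 183 of 222 after foot shock (82.4%, 76.8 to 87.2%). The level was 1126 CPM (1043 to 1215) in control against 957 CPM (885 to 1033) after foot shock. The median depth of these cells was 3954 UMIs in control against 3222.5 after foot shock, and after thinning to 1000 UMIs the shares were 63.6% and 55.7%. Most cells of the subcluster carried Cck in both libraries, and 86 and 82 cells had 4 or more UMIs.

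Thalamic-like neurons, led by C1ql3 and Gbx2, were the other Cck population. There 75 of 131 control cells had a Cck UMI (57.3%, 48.3 to 65.9%), as did 36 of 55 after foot shock (65.5%, 51.4 to 77.8%), at 476 CPM (428 to 527) and 565 CPM (478 to 664). Free RNA held more Cck than any other of the 8 genes, with 116 CPM in control against 88.7 CPM after foot shock. In the remaining 8 MHb-like subclusters Cck was between 0 and 62.1 CPM, under that level in each library. In LHb-like neurons as a whole it was 24.1 CPM (19.6 to 29.3) and 14.6 CPM (10.7 to 19.4), also under free RNA. The Sema3c and Baiap2 neurons were near the limit, at 122 CPM (98.5 to 148) in control against 128 CPM (96.9 to 166) after foot shock, of which the second stood above free RNA.

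Within the LHb-like class the Gabrg1 and Arpp21 subcluster held 84 of 101 Cck UMIs in control and 18 of 46 in foot shock, where 14 more lay in the Chrm2 and Sv2c subcluster. The cells that carried it stood apart from the rest of that subcluster. In control, 47 cells with Cck had a median of 1840 UMIs and Pou4f1 at 24.7 CPM (6.73 to 63.2), and 221 cells without Cck had 3919 UMIs and Pou4f1 at 129 CPM (106 to 156). In foot shock, 13 cells with Cck had 1489 UMIs and Pou4f1 at 29.4 CPM (0.744 to 164), and 106 without had 3786 UMIs and 111 CPM (79.4 to 150). Cck there therefore sat in shallower cells with less Pou4f1 in control, and in foot shock the Pou4f1 intervals overlapped. In the Tac1 and Wif1 subcluster Pou4f1 was 899 CPM (822 to 981) in control cells with Cck and 667 CPM (436 to 977) in those without, and these intervals overlap.

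**Figure D2:**
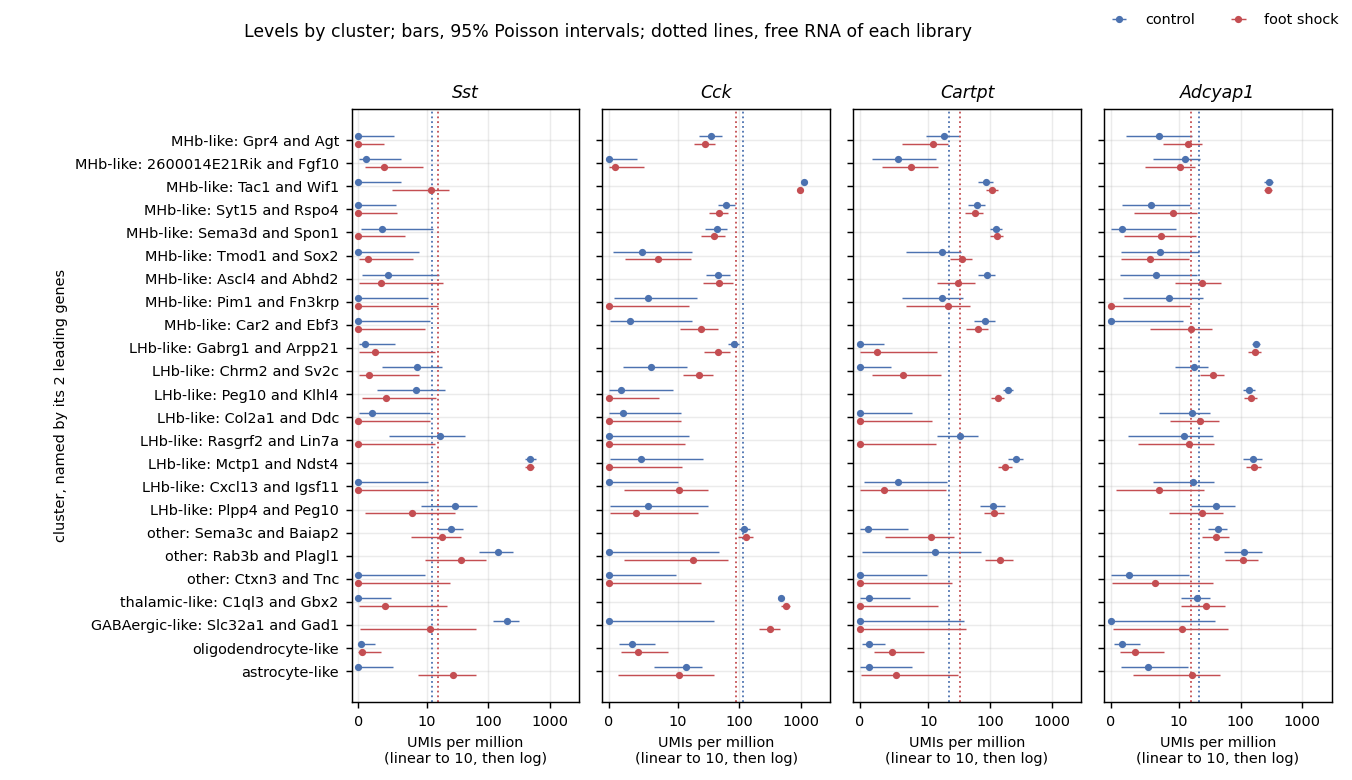
Level of Sst, Cck, Cartpt and Adcyap1 in CPM (horizontal axis, linear to 10 and then log) in clusters (rows), with 95% Poisson intervals, control in blue and foot shock in red; dotted lines mark free RNA in each library. Sst stood far above its dotted lines in both libraries in the Mctp1 and Ndst4 subcluster alone, Cck in the Tac1 and Wif1 and the thalamic-like cells, and Cartpt and Adcyap1 in several subclusters of both MHb-like and LHb-like neurons.

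Cartpt encodes the precursor of CART peptides, which are widespread in feeding, reward and stress circuits. The gene (ENSMUSG00000021647) lies on chromosome 13 at 99898489 to 99901091, minus strand. It was the most widely spread of the 8 genes, with 6 subclusters above background in both libraries. The highest LHb-like levels were in the Mctp1 and Ndst4 subcluster, at 263 CPM (199 to 341) in control against 178 CPM (135 to 231.5) after foot shock, and in the Peg10 and Klhl4 subcluster, at 197 CPM (163 to 236) and 133 CPM (103 to 169). The first had 42% and 31.9% of cells with a UMI, and the second 40.8% and 28.6%. The intervals of neighbouring values overlap within each library, so no order between these subclusters is given. The small Plpp4 and Peg10 subcluster, with 43 and 74 cells, had 113 CPM (68.8 to 174) and 117 CPM (78.9 to 167).

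Among MHb-like neurons Cartpt was above background in both libraries in the Sema3d and Spon1, Tac1 and Wif1, Syt15 and Rspo4 and Car2 and Ebf3 subclusters. The Sema3d and Spon1 cells had 126 CPM (98.6 to 158) in control against 130 CPM (101 to 164) after foot shock, with 31.4% and 26.3% of cells positive. The Tac1 and Wif1 cells had 87.0 CPM (65.0 to 114) and 108 CPM (85.1 to 136). Cells here mostly held a single UMI, with 38 of 44 positive Tac1 and Wif1 cells in control and 38 of 49 in foot shock at exactly 1. The Ascl4 and Abhd2 subcluster passed in control only, at 90.02 CPM (64.6 to 122) against 29.99 CPM (13.7 to 56.9) after foot shock, and its median depth was 3621 UMIs in control and 1787 in foot shock. The LHb-like subclusters Gabrg1 and Arpp21, Chrm2 and Sv2c, Col2a1 and Ddc, and Cxcl13 and Igsf11 had 4 or fewer Cartpt UMIs in each library. Thalamic-like neurons had 1 Cartpt UMI in 131 control cells and 0 in 55 foot shock cells, and 0 of 55 allows up to 5.45% of cells with a UMI (taking up to 3 counts as possible where 0 were seen, here and below). This limit is for cells with a UMI at this depth and not for cells that express the gene.

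Adcyap1 encodes PACAP, a peptide that raises cyclic AMP through the receptors Adcyap1r1, Vipr1 and Vipr2. The gene (ENSMUSG00000024256) lies on chromosome 17 at 93199017 to 93206537, plus strand. The highest level was in the Tac1 and Wif1 subcluster, at 283 CPM (242 to 329) in control against 277 CPM (239 to 319) after foot shock, with 59.6% (51.5 to 67.4%) and 52.7% (45.9 to 59.4%) of cells positive. No other MHb-like subcluster was above background in either library. In LHb-like neurons 3 subclusters carried it at like levels. The Gabrg1 and Arpp21 cells had 177 CPM (152 to 205) and 171 CPM (133 to 216), the Mctp1 and Ndst4 cells 157 CPM (109 to 219) and 162 CPM (121 to 213), and the Peg10 and Klhl4 cells 136 CPM (108 to 169) and 145 CPM (113 to 182). All of these intervals overlap one another within a library. The Sema3c and Baiap2 neurons were lower, at 42.6 CPM (29.5 to 59.5) and 40.4 CPM (23.9 to 63.8). The LHb-like Chrm2 and Sv2c subcluster passed in foot shock only, at 35.0 CPM (22.0 to 53.1) against 17.2 CPM (9.42 to 28.9) in control. In oligodendrocyte-like cells Adcyap1 was found in 0.371% of control and 0.604% of foot shock cells.

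Trh, the hypothalamic releasing factor of thyrotropin that is also a transmitter, was rare and narrow. The gene (ENSMUSG00000005892) lies on chromosome 6 at 92242061 to 92244650, minus strand. The LHb-like Cxcl13 and Igsf11 subcluster held 14 of the 24 neuronal Trh UMIs of control and 12 of the 14 of foot shock. There 7 of 60 control cells were positive (11.7%, 4.82 to 22.6%), as were 8 of 59 after foot shock (13.6%, 6.04 to 24.98%), at 38.9 CPM (21.3 to 65.3) and 42.3 CPM (21.9 to 74.0), against 0.832 and 1.30 CPM in free RNA. MHb-like neurons had Trh in 0 of 1207 and 0 of 1616 cells, which allows up to 0.249% and 0.186% of cells with a UMI.

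Nts, Npy and Calca passed in no class or subcluster of at least 50 cells. Nts (ENSMUSG00000019890, chromosome 10 at 102481756 to 102490486, minus strand) had 28 neuronal UMIs in control and 17 in foot shock. They were spread over the GABAergic-like cells (7 and 4 UMIs), the Rab3b and Plagl1 neurons (5 and 2), the Sema3c and Baiap2 neurons (5 and 0), the Plpp4 and Peg10 neurons (3 and 5), the thalamic-like neurons (6 and 1), the Peg10 and Klhl4 neurons (0 and 3), the Gpr4 and Agt neurons (2 and 0) and the Ctxn3 and Tnc neurons (0 and 2). Npy (ENSMUSG00000029819, chromosome 6 at 49822710 to 49829507, plus strand) had 2 neuronal UMIs in control and 3 in foot shock, the latter in 3 of 28 GABAergic-like cells. Calca (ENSMUSG00000030669, chromosome 7 at 114631478 to 114636357, minus strand) had 8 and 7 neuronal UMIs, of which 4 and 1 lay in thalamic-like neurons and 3 and 2 in Sema3c and Baiap2 neurons. Nts in the 21 GABAergic-like cells of control, at 73.0 CPM (29.4 to 150) in 3 cells, was the one value above background in this group of genes.

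The promoters of the peptide genes are shown because Sst and Cartpt share an 8-letter element. Its shorter form is also held by Cck, Adcyap1, Nts, Trh and Calca. A link between the element and the cells that hold the transcripts was not tested. In the 250 bases before each RefSeq start (GRCm38.p6), the cAMP response element TGACGTCA was found in Sst and Cartpt, and in 1.55% of all 32851 windows of that length. Its shorter form TGACG, searched on both strands and counted also inside the longer one, was found in 7 of the 8 genes (all but Npy) and in 17.8% of windows. The AP-1 motif TGACTCA was found in Nts, the E-box CACGTG in Cck and TATAAA in Adcyap1, against 4.46%, 6.02% and 12.4% of windows. Windows of up to 30 bases are printed 5′ to 3′ on the strand of the gene, with the matched letters in capitals (for Cck the reverse complement of TGACG).
Sst: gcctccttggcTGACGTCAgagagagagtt
Cartpt: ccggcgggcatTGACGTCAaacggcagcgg
Cck: ctgctggactgCGTCAgcactgggtaa
Adcyap1: gactaggatgcTGACGtcttttactga
They lie at chr16:23890874-23890903, chr13:99900777-99900806, chr9:121495726-121495752 and chr17:93198915-93198941. The capitals begin 48, 112, 47 and 91 bases before the RefSeq start used. In GENCODE vM21 the Sst and Cartpt windows fall in an untranslated exon of 1 of 1 and 1 of 2 transcripts, which start further upstream, and the Cck and Adcyap1 windows lie outside all annotated exons. A match describes the letters and is no evidence of binding.

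Per-cell co-detection asked which peptides share neurons. In MHb-like neurons Cck and Adcyap1 were found together in 96 of 1207 control cells and 119 of 1616 foot shock cells, where the product of their shares gives 20.9 and 23.9. Adcyap1 was present in 46.4% (39.4 to 53.4%) of control cells with Cck and in 2.60% (1.71 to 3.79%) of those without, and in 49.0% (42.5 to 55.4%) and 2.91% (2.09 to 3.95%) in foot shock. Most of these cells lay in 1 subcluster, Tac1 and Wif1, but the pair was also found elsewhere. In Ascl4 and Abhd2 cells of foot shock, 8 of 151 had Cck, 6 had Adcyap1 and 4 had both. The MHb-like cells outside Tac1 and Wif1 were not compared with a product as a group. Inside the Tac1 and Wif1 cells, 86 control cells held both against a product of 86.4, and 103 foot shock cells against 96.4. Only 93 and 117 of these cells had Adcyap1, which caps the joint count and leaves little room above the product in control. Adcyap1 was present in 59.3% (50.8 to 67.4%) of those control cells with Cck and in 63.6% (30.8 to 89.1%) of the 11 without, and after foot shock in 56.3% (48.8 to 63.6%) and 35.9% (21.2 to 52.8%), with overlapping intervals. Of the 156 control cells in it, 65 held Cck with Adcyap1 alone, 18 Cck with Cartpt alone and 21 all of Cck, Cartpt and Adcyap1. In foot shock these were 76, 12 and 26 of 222 cells.

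In LHb-like neurons Sst, Cartpt and Adcyap1 shared cells. Cck and Adcyap1 did so too, and are given below for the Gabrg1 and Arpp21 subcluster. Sst and Cartpt were found together in 17 of 957 control cells (product 3.46) and in 22 of 849 foot shock cells (product 5.37). Sst and Adcyap1 were together in 13 cells (7.95) and 27 cells (9.24), and Cartpt and Adcyap1 in 37 (17.3) and 34 (14.99). Inside the Mctp1 and Ndst4 subcluster, too, more cells than the product held each pair, on small counts given without intervals. Its counts were 14 (10.5) and 21 (14.98) for Sst with Cartpt, 12 (10.0) and 25 (16.5) for Sst with Adcyap1, and 12 (8.40) and 15 (10.2) for Cartpt with Adcyap1. After foot shock, Adcyap1 was present in 53.2% (38.1 to 67.9%) of the 47 cells with Sst and in 15.9% (6.64 to 30.1%) of the 44 without. In control the same shares were 48.0% (27.8 to 68.7%) and 32.0% (14.9 to 53.5%), and these intervals overlap. Cells with Sst were slightly deeper, at medians of 4636 and 4543 UMIs in control and 3976 and 3520 in foot shock. After thinning to 1000 UMIs, the foot shock pair of Sst and Adcyap1 was still at 6.37 cells against a product of 3.77, and Sst with Cartpt at 7.21 against 3.98. In all, 8 of 50 control cells (16.0%) and 14 of 91 foot shock cells (15.4%) held Sst, Cartpt and Adcyap1 with no other of the 8 genes.

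The Peg10 and Klhl4 subcluster held the Cartpt and Adcyap1 pair with few Sst-positive cells (3 and 2). There 23 of 130 control cells (product 18.3) and 15 of 126 foot shock cells (product 11.4) carried both. In the Gabrg1 and Arpp21 subcluster, Cck and Adcyap1 were together in 26 control cells (product 17.5) and in 5 foot shock cells (product 4.81). In control, Adcyap1 was present in 55.3% (40.1 to 69.8%) of the cells with Cck and in 33.5% (27.3 to 40.1%) of the deeper cells without. Over all 8 genes, 2 or more were found in 68.6% of Tac1 and Wif1 cells in control and 55.4% in foot shock, and in 44.0% and 36.3% of Mctp1 and Ndst4 cells. In oligodendrocyte-like cells the count was 0 of 1078 and 0 of 828, which allows up to 0.278% and 0.362% of cells with UMIs of 2 or more of the genes.

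**Figure D3:**
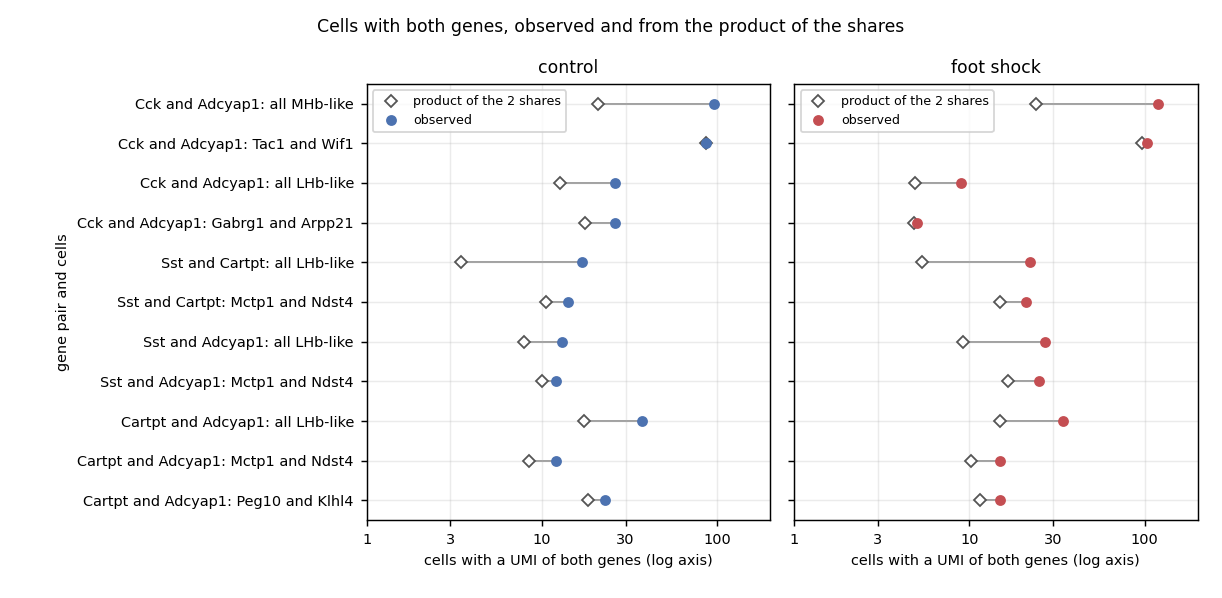
Number of cells with a UMI of both genes of a pair (filled circles, log axis) and the number given by the product of the 2 shares (open diamonds) in whole classes and in subclusters, control left and foot shock right. For Cck and Adcyap1 the gap of all MHb-like neurons closed inside control Tac1 and Wif1 cells (86 against 86.4, at most 93 possible). For Sst with Cartpt a smaller gap was left inside the Mctp1 and Ndst4 cells (14 against 10.5 in control, small counts without an interval).

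The comparison of foot shock with control asked whether peptide transcripts differed after the session. A gene with at least 20 UMIs over both libraries was called when its CPM ratio was at least 1.5, or at most its inverse, with an interval without 1. This call compares 2 libraries and not 2 conditions. In LHb-like neurons 5 of the 8 genes could be compared, 1 was called higher and 1 lower, where 1.76% of 11639 genes were called higher and 2.74% lower. In MHb-like neurons 3 could be compared and 0 were called (1.38% higher and 2.24% lower over 11754 genes). In other neurons 4 were compared, 1 was called higher and 0 lower (1.73% and 4.29% of 9237 genes), and in thalamic-like neurons 2 were compared and 0 called (1.89% higher and 2.91% lower of 7263 genes). Over 19 subclusters, 28 combinations of the 8 genes with a subcluster were compared, 0 were called higher and 2 lower, where 1.99% and 2.93% of 126385 gene and subcluster combinations were called.

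Sst was higher in LHb-like neurons after foot shock, at 152 UMIs and 48.1 CPM against 127 UMIs and 30.3 CPM (ratio 1.59, 1.24 to 2.02). Inside the Mctp1 and Ndst4 subcluster the level did not differ beyond counting error (ratio 0.969, 0.748 to 1.26). With a minimum of 2000 UMIs the subcluster that best matched it, which shared 0.538 of the joined cells, gave 1.57 (0.854 to 3.03). The share of that subcluster among LHb-like neurons was 5.22% (3.90 to 6.83%) in control and 10.7% (8.72 to 12.996%) after foot shock. Without it the LHb-like ratio was 0.364 (0.121 to 0.919) on 23 and 6 UMIs. Without the Gabrg1 and Arpp21 subcluster it was 1.37 (1.08 to 1.75), which is no longer past the fold of 1.5. Each group is 1 pooled library, so the make-up of the dissected tissue and a response to shock cannot be told apart.

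Cck was lower in LHb-like neurons after foot shock, at 14.6 CPM against 24.1 CPM (ratio 0.603, 0.416 to 0.863). In the Gabrg1 and Arpp21 subcluster Cck was called lower as well (ratio 0.545, 0.308 to 0.914, where 2.86% of 8356 genes were called lower), and its share of LHb-like neurons was 28.0% (25.2 to 30.97%) in control and 14.0% (11.8 to 16.5%) in foot shock. With a minimum of 2000 UMIs that call was lost and its direction turned, at 1.09 (0.480 to 2.33) in the best match, which shared 0.387 of the joined cells. Without the Gabrg1 and Arpp21 subcluster the LHb-like ratio was 1.89 (0.998 to 3.68). The call in all LHb-like neurons was also lost with a mitochondrial limit of 10% (0.788), with called doublets kept (0.758) and with a minimum of 2000 UMIs (0.793). Free RNA held 116 and 88.7 CPM of Cck, and both LHb-like values lay below it.

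In MHb-like neurons the ratios were 0.875 (0.792 to 0.968) for Cck, 0.890 (0.748 to 1.06) for Cartpt and 1.10 (0.908 to 1.33) for Adcyap1. In the Tac1 and Wif1 subcluster they were 0.850 (0.762 to 0.947), 1.24 (0.862 to 1.81) and 0.980 (0.793 to 1.21). These intervals bound the difference between the libraries at less than 1.5 times for Cck and Adcyap1 and leave up to 1.81 times for Cartpt. Of the MHb-like subclusters, Ascl4 and Abhd2 alone gave a call, with Cartpt lower in foot shock (9 against 41 UMIs, ratio 0.333, 0.142 to 0.696, where 2.68% of 5495 genes were called lower). With a minimum of 2000 UMIs the subcluster that best matched it gave 0.658 (0.263 to 1.45). In LHb-like neurons Cartpt was at 1.03 (0.830 to 1.27) and Adcyap1 at 0.917 (0.773 to 1.09). Within subclusters, Cartpt was at 0.675 (0.492 to 0.919) in Peg10 and Klhl4 and 0.678 (0.4605 to 0.998) in Mctp1 and Ndst4 cells, both under the control level by less than the fold required. Thalamic-like neurons had Cck at 1.19 (0.974 to 1.44). The call for Cartpt in other neurons (2 against 21 UMIs) rested on 1 cell with 14 UMIs and another with 5, and 7 UMIs were left without the highest cell.

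**Figure D4:**
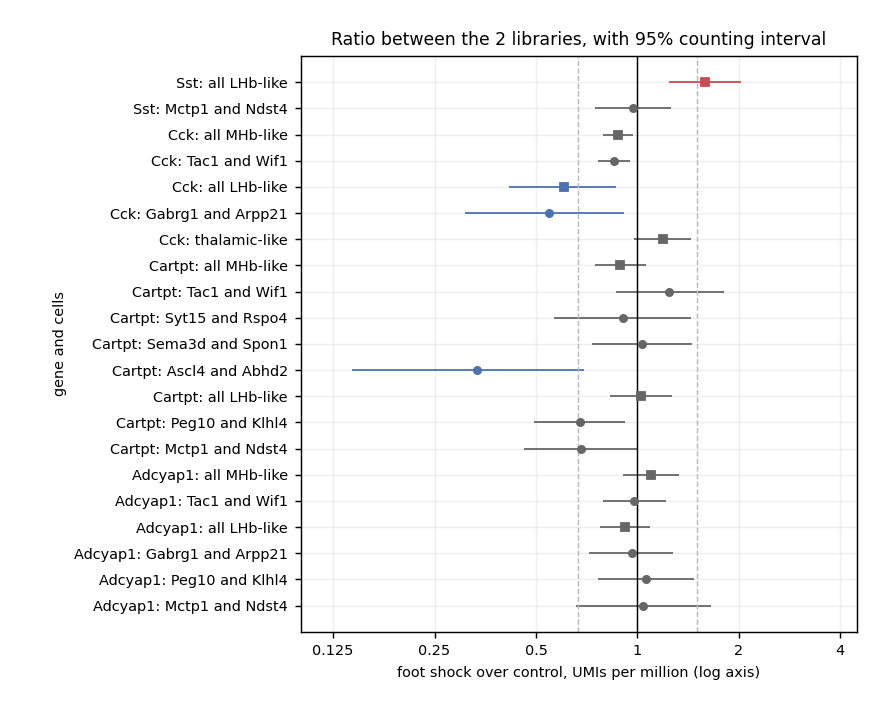
Ratio of foot shock to control for Sst, Cck, Cartpt and Adcyap1 (log axis) in whole classes (squares) and subclusters (circles), with 95% counting intervals; dashed lines mark 1.5 and its inverse, red marks a call higher and blue a call lower. Sst is at 1.59 in all LHb-like neurons and at 0.969 in the Mctp1 and Ndst4 subcluster that holds most of it.

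The receptors for these peptides were measured as a list of 26 genes. In both libraries Sstr2, a somatostatin receptor, was above background in MHb-like neurons at 110 CPM (101 to 119) in control and 109 CPM (100 to 118) in foot shock, and in LHb-like neurons at 37.3 CPM (31.6 to 43.6) and 49.7 CPM (42.2 to 58.1). Sst itself was at 0.998 and 2.51 CPM in MHb-like neurons, so the receptor was above background where Sst was not. Adcyap1r1, the PACAP receptor, was above background in LHb-like neurons (62.6 and 57.9 CPM), thalamic-like neurons (106 and 119 CPM) and other neurons (136 and 118 CPM), and was at 4.19 and 1.79 CPM in MHb-like neurons. Calcrl, the core of the CGRP and adrenomedullin receptors, was above background in MHb-like neurons alone among the 4 classes (39.3 and 27.0 CPM), Npy1r in LHb-like neurons (30.1 and 19.6 CPM), and Npy2r and Ramp3 in thalamic-like neurons. Ramp3 was among the markers that named that class.

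**Figure D5:**
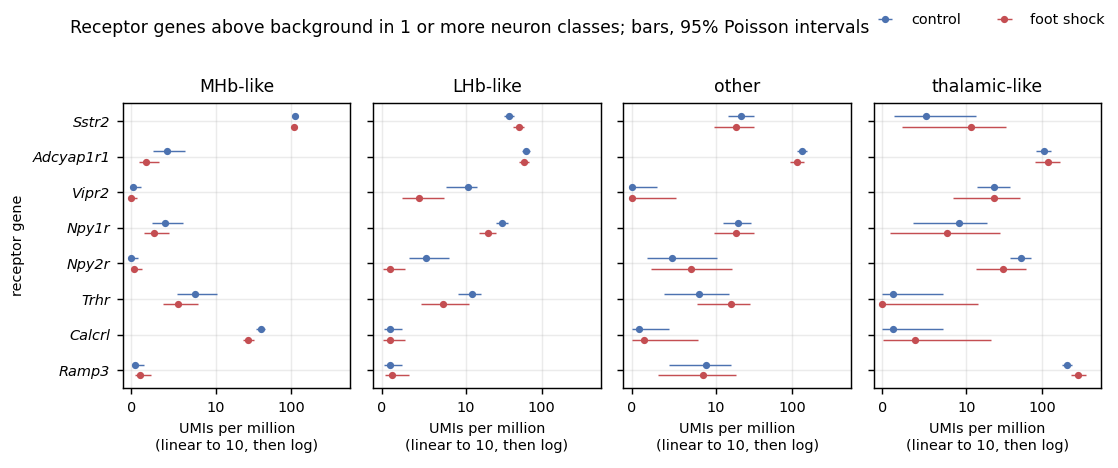
Level of receptor genes in CPM (horizontal axis, linear to 10 and then log) in the 4 neuron classes, with 95% Poisson intervals, control in blue and foot shock in red. Sstr2 is near 110 in MHb-like neurons in both libraries, and Adcyap1r1 is high in LHb-like, other and thalamic-like neurons and low in MHb-like neurons.

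Of 11 receptor genes with 20 or more UMIs in LHb-like neurons, 0 were called higher and 4 lower. Over all 11639 genes compared, 1.76% were called higher and 2.74% lower. The median log2 ratio of the receptor genes was -0.62 against -0.05 over all genes compared. The 4 were Npy1r (ratio 0.652, 0.473 to 0.891), Npy2r (0.181, 0.0346 to 0.601), Vipr2 (0.422, 0.213 to 0.784) and the Trh receptor Trhr (0.598, 0.349 to 0.996). Without the Gabrg1 and Arpp21 subcluster Vipr2 was at 0.819 (0.325 to 1.98) and not called, while Npy1r was still called (0.629). Trhr was then at 0.637 (0.168 to 2.12) on 9 and 5 UMIs, under the 20 needed for a call. Npy2r, with 21 control UMIs in the subcluster left out, was also too rare to be called. The loss of these 2 calls therefore says nothing of their ratios. Scaled by the median ratio over genes, Npy1r (0.675) and Trhr (0.618) were not called. How far the make-up of the LHb-like class moves the receptor levels beyond these values was not tested. In MHb-like neurons 1 of 7 receptor genes, Adcyap1r1, was called lower (0.427, 0.180 to 0.947), where 2.24% of 11754 genes were. Its levels were under the 22.5 and 14.3 CPM of free RNA.

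Of 32 other peptide genes, Cbln2 was above background in both libraries in MHb-like, LHb-like and other neurons, Nppa in MHb-like neurons, Cbln1 in LHb-like and other neurons, and Grp, Pdyn and Penk in other neurons. Nppa, the precursor of atrial natriuretic peptide, was higher after foot shock in LHb-like neurons (ratio 1.91, 1.43 to 2.55) but its 20.06 and 38.3 CPM lay under the 105 and 123 CPM of free RNA, and with a minimum of 2000 UMIs the ratio was 1.35 and not called. Penk, the enkephalin precursor, was lower in LHb-like neurons (0.525, 0.301 to 0.885) and higher in other neurons (2.39, 1.58 to 3.65). Without the Gabrg1 and Arpp21 subcluster its LHb-like ratio was 0.637 (0.168 to 2.12) on 9 and 5 UMIs, and the share of Rab3b and Plagl1 cells among other neurons was 8.99% in control and 20.2% after foot shock. Granule and processing genes were general, with 8 of 13 above background in both libraries in MHb-like, 11 in LHb-like, 9 in thalamic-like and 10 in other neurons. Pcsk2, the prohormone convertase, had a UMI in 91.7% and 90.4% of MHb-like and 69.6% and 73.5% of LHb-like cells. Pcsk1, the other convertase, was higher in LHb-like neurons after foot shock (47 against 22 UMIs, ratio 2.83, 1.67 to 4.93). It was not among the 11 processing genes above background in both libraries in that class. How far the make-up of the class moves this ratio was not tested. In other neurons, 12 processing genes were compared, and 1 was called higher and 1 lower. Over all 9237 genes compared there, 1.73% were called higher and 4.29% lower.

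The genes whose levels over 29 classes and subclusters were most like those of each peptide gene were ranked by the smaller of the 2 libraries' Pearson r of log2(CPM + 1), among 12428 genes. The units overlap, share libraries and differ in depth, so r is a description. For Cartpt these were Gng8 (r = 0.84 in control, 0.81 after foot shock), Vsig8 and Cytip, and for Adcyap1 Tmem255a (0.76 and 0.64), Pnck and Mttp. For Sst they were Ndst4 (0.62 and 0.62), Glra2 and Mctp1, for Cck Kirrel3 (0.66 and 0.63), Tox and Pde10a, and for Trh Cxcl13 (0.67 and 0.69), Tpbg and Arhgap36. Ndst4, Mctp1 and Cxcl13 are genes by which the subclusters were called. Nts, Npy and Calca had too few UMIs for the ranking to be read.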

How the data were processed

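Habenula cells of 2 pooled libraries were sequenced with 10x 3' version 2 chemistry, per the labels' protocols. The deposited UMI counts, not normalized, were made with Cell Ranger 2 on mm10, per the submitters' processing notes. Which gene annotation they used was not given in the sources used here. Of 28692 gene identifiers, 28339 occur in GENCODE vM21. Each matrix held 737280 barcodes. Cells had at least 1000 UMIs, 500 to 6000 genes and at most 20% mitochondrial UMIs. Scrublet removed 249 control cells (4.85%) and 69 foot shock cells (1.43%). Cells were clustered jointly without integration in scanpy 1.11.5 (2000 variable genes, 30 components, 15 neighbours, Leiden resolution 1.0), leaving out the 8 genes, the listed peptide, receptor and processing genes, early response, mitochondrial, ribosomal and hemoglobin genes. Naming a cluster took 3 or more markers that each reached 10% of its cells and 33.3% of the share in the top cluster. Habenula classes also needed Pou4f1 at 1 per 10000, a threshold set with the data seen, and were clustered and named again. A difference from the study may come from these rebuilt names. Clusters with markers of several classes (18 and 96 cells) were left out. Of the LHb-like subclusters, 1 enters the counts but is not reported here. The first clustering had no neuron cluster with more markers of another class than of its own among its 10 leading genes.

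Shares carry Clopper-Pearson intervals, CPM Poisson intervals and ratios conditional binomial intervals, all at 95%. Thinning to 1000 UMIs used the mean over all draws. Limits for a count of 0 take up to 3 counts as possible, and are not Clopper-Pearson bounds. The computation was tested on simulated data. Alternatives were of planned kinds, with 3 more added after seeing the data. The 8 genes, the lists and the alternatives planned were chosen with earlier results of these data known. All 8 genes are named, and other peptide and receptor genes where above background in both libraries or called in a neuron class. Processing genes are given as counts, with Pcsk1 and Pcsk2 named. Genes of like pattern are named by rank of r.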

Additional observations from a re-analysis of the deposited data

How the results depend on the processing

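No paired analysis was possible because each group is 1 library. The number of gene and class combinations above background (9 in control and 8 in foot shock) was 4 and 4 when a cell was positive from 2 UMIs, and 3 in foot shock with astrocyte-like cells as background. Other settings gave 8 to 13 in control and 6 to 9 in foot shock. From 2 UMIs, Sst was found in 33.0% of Mctp1 and Ndst4 cells in foot shock, Cck in 84.0% and 65.8% of Tac1 and Wif1 cells, and the co-detection of Cck and Adcyap1 in MHb-like neurons of foot shock, thinned to 1000 UMIs, was 9.18 times the product of the shares (2.25 to 24.7), against 5.77 times from 1 UMI. With a minimum of 2000 UMIs, Sst in LHb-like neurons of foot shock was 56.8 CPM, the shares of Sst in the matched subcluster 33.33% and 36.5% and of Cck 88.1% in foot shock, the Sst ratio in that subcluster 1.57 (0.854 to 3.03), the Cck ratio in LHb-like neurons 0.793, and the Cck ratio in the match of Gabrg1 and Arpp21, which reversed, 1.09 (0.480 to 2.33). The Sst ratio in the Mctp1 and Ndst4 match was 1.05 with a minimum of 500 UMIs and 1.13 with a mitochondrial limit of 10%. The Cck ratio in LHb-like neurons was 0.788 under that limit and 0.758 with called doublets kept. With a fold of 2, the Sst and Cck ratios of LHb-like neurons (1.59 and 0.603) were not past it and 1 of the 3 calls was left.

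The remaining alternatives were chosen after seeing the data. Without the Gabrg1 and Arpp21 subcluster, Sst in control LHb-like neurons was 39.9 CPM, its ratio 1.37, the Cck ratio reversed to 1.89 and 1 call was left. Without the Mctp1 and Ndst4 subcluster, Sst was 5.79 and 2.11 CPM and its ratio reversed to 0.364. Without the Pim1 and Fn3krp and the Car2 and Ebf3 subclusters, Cck in MHb-like neurons was 182 and 154 CPM. The cause of these differences was not tested, beyond the cells left out by construction. Subclusters of other settings were matched by shared cells, and the match of Mctp1 and Ndst4 at 2000 UMIs shared 0.538 of the joined cells. Of 132 recomputed main values, 103 kept their direction and side of the threshold or stayed within their interval or within 1.5 times the count. Ambient subtraction and median-ratio scaling changed none of the calls on the 8 genes.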

Other observations

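Clusters with markers of several unrelated classes, left out of every class above, held peptide transcripts too. In the 96 such cells of foot shock, 12 had a Cck UMI (28 UMIs), 10 an Adcyap1 UMI (25 UMIs) and 8 a Cartpt UMI (10 UMIs). In the 18 of control, 1 had a Cck UMI (5 UMIs) and 3 an Adcyap1 UMI (4 UMIs).

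Single cells carried much of some small totals. Of the 28 Cck UMIs in GABAergic-like cells of foot shock, 27 lay in 1 cell, and the 5 Sst UMIs of astrocyte-like cells in that library lay in 1 cell of 142. Of the 16 Cartpt UMIs in Rab3b and Plagl1 neurons of foot shock, 14 lay in 1 of 39 cells.

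The median depth of 2 MHb-like subclusters differed more between the libraries than that of the others. Ascl4 and Abhd2 cells had 3621 UMIs in control and 1787 in foot shock, and Pim1 and Fn3krp cells 4511 and 2192.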
